A study of Mus musculus with 8 samples.

Results

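The receptors, co-receptors and Smads of the transforming growth factor beta (TGF-beta) and bone morphogenetic protein (BMP) pathways were followed in the thoracic aorta of newborn mice that lack fibulin-4, an extracellular protein on which elastic fibre formation depends. The set held 10 genes of the 22180 with a name on the array: the receptors Tgfbr1, Tgfbr2 and Bmpr2, the co-receptors Tgfbr3, Eng and Cd109, the receptor-activated Smads Smad2 and Smad3, and the inhibitory Smads Smad6 and Smad7. Each was found by its gene symbol and was measured by 1 probe set. Of the 10, Cd109 was the gene that passed the test over all genes, being 3.73-fold higher in the knockout over both segments. That call did not hold under every alternative described below, and Cd109 did not pass in either segment alone. Eng, Bmpr2 and Smad7 had higher values on both knockout arrays than on both wild-type arrays of each segment, by 1.76, 1.36 and 1.46-fold, but did not pass the test over all genes.

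All mice were of strain C57BL/6 and were taken at postnatal day 0. The 4 groups were ascending aorta (from the aortic valve to the ductus) and descending aorta (above the diaphragm) of wild-type and of fibulin-4 knockout pups. Each group had 2 arrays, each array held a pool of 8 pups' tissue of 1 genotype and segment, and the pools of a group are biological replicates according to the labels. The labels give no promoter, Cre or cell type restriction of the deletion. Expression is given as the authors' log2 value per probe set, so a difference of 1 is a 2-fold difference; a level of 1 gene is not comparable with that of another, because probes differ.

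TGF-beta and BMP ligands bind a pair of type II receptors, which phosphorylate a pair of type I receptors. The type I receptors then phosphorylate receptor-activated Smads, which enter the nucleus with Smad4 and bind DNA. Smad6 and Smad7 are induced by the same signals and hold them back, and co-receptors without kinase activity present ligands to the receptors or withhold them. In humans, inherited loss-of-function changes in TGFBR1, TGFBR2, SMAD2 or SMAD3 cause thoracic aortic aneurysm.

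Wild-type ascending replicate 2 and wild-type descending replicate 2 stood apart from the other arrays: the interquartile range of their values over named genes was 1.80 and 1.74, against 2.14 to 2.28 on the other 6 arrays. Smooth muscle markers, which define the aortic media, were present in every group, with a mean log2 value over 14 genes between 8.84 and 9.22 on the 8 arrays. Gene by gene, knockout effects moved with level. In the brightest 20% of genes, to which 7 of the 10 receptors and Smads belong, 79.4% had a log2 change above 0 over both segments, against 49.8% of all genes. The median change averaged over both segments was 0.24 in that brightest 20% and -0.14 in the dimmest 20%.

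The upstream windows of Eng and Bmpr2 are shown because their arrays did not overlap between genotypes in either segment. The same held for Cd109 and Smad7, for which no window was available. Each is the 250 bases before the start of the gene in RefSeq, build GRCm38.p6, read 5′ to 3′ on the gene's strand; both genes lie on the + strand. Eng is from chr2:32646345-32646594 and Bmpr2 from chr1:59764029-59764278. Capitals mark 3 short motifs searched on both strands: CAGAC, a short site bound by Smad proteins, GGCGCC, a GC-rich Smad site, and AGGAAG, the core bound by ETS factors of endothelium.
Eng: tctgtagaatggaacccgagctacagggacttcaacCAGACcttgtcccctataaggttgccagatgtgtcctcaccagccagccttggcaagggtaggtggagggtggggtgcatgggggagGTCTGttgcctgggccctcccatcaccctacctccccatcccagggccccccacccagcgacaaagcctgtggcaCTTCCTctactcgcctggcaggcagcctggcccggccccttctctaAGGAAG
Bmpr2: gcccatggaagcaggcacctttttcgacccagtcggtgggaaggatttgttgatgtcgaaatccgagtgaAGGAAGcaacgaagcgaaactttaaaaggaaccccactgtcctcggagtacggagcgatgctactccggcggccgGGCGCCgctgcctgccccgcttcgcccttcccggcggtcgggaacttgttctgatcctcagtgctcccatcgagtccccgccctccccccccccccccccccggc
Eng held 2 matches to CAGAC, 2 to AGGAAG and 0 to GGCGCC, and Bmpr2 held 1 match each to AGGAAG and GGCGCC and 0 to CAGAC. No matches overlapped. CAGAC was present in 42.2%, AGGAAG in 29.5% and GGCGCC in 9.59% of all 32851 windows of this length, so matches of this kind are frequent, and a match does not show that a factor binds there. RefSeq windows were available for 6 of the 10 genes, and those of Smad3 and Smad6 held 0 matches to the 3 motifs.

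**Figure D1:**
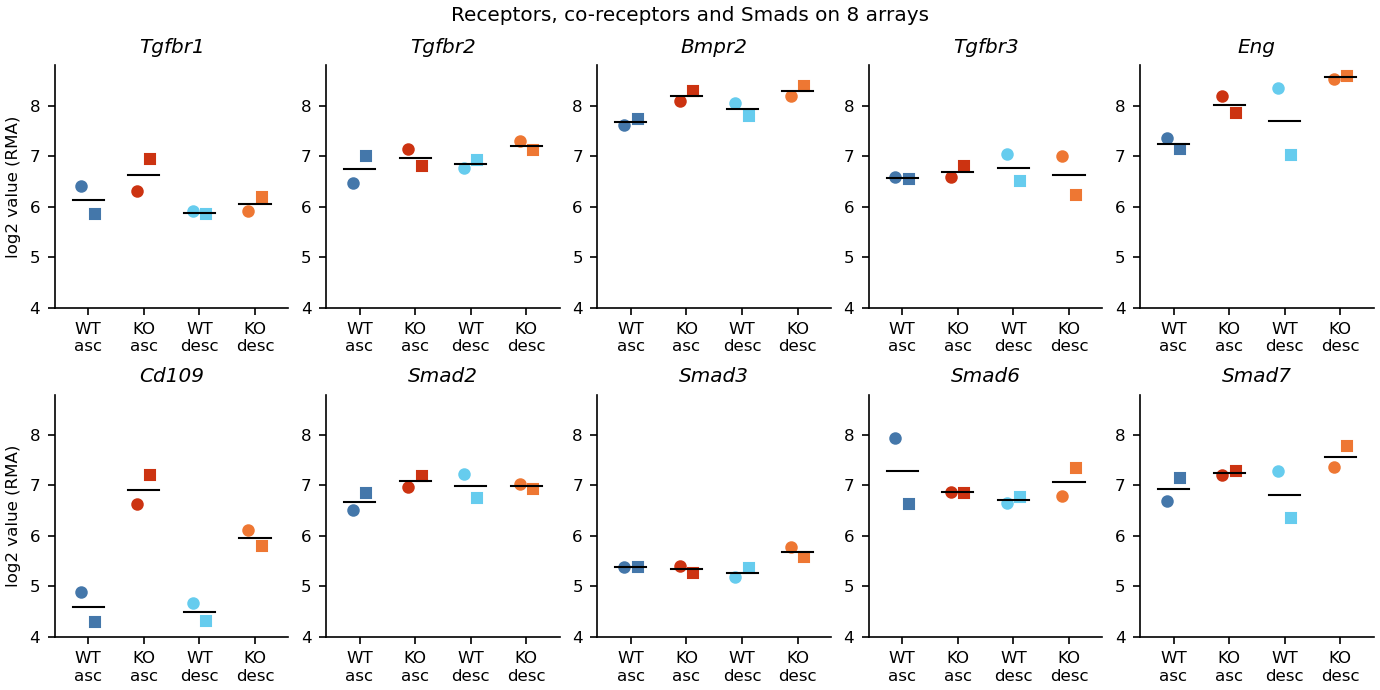
Log2 values of the 10 genes on the 8 arrays, by group (WT, wild-type; KO, knockout; asc, ascending; desc, descending), with circles for replicate 1, squares for replicate 2 and a black line for the mean of the group (n = 2). Cd109 separates the genotypes in both segments, Eng and Smad7 have 1 high and 1 low wild-type descending array, and Smad6 has 1 high wild-type ascending array at 7.93.

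The first question was which receptors and Smads differ between knockout and wild-type aorta over both segments. In limma's fit over all genes, 1 of the 10 passed a Benjamini-Hochberg adjusted p under 0.05, against 0.0721% of all genes tested. At an unadjusted p under 0.05 there were 3, all higher in the knockout (Cd109, Eng and Bmpr2), where 7.57% of all genes and 20.8% of the brightest 20% were higher. Of the 10, 8 had a change above 0, a share close to that in the brightest genes, and the median change was 0.32 (0.30 without Cd109). In 4 genes both knockout arrays lay above both wild-type arrays in each segment, against 7.81% of all genes and 21.2% of the brightest 20%. Because 9 of the 10 did not pass, their values below are given as values, with their intervals.

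Tgfbr1 encodes the type I receptor of TGF-beta. Its log2 value was 6.41 and 5.85 in wild-type and 6.31 and 6.94 in knockout ascending aorta, and 5.90 and 5.85 in wild-type and 5.92 and 6.18 in knockout descending aorta. The genotypes overlapped in the ascending and not in the descending segment, where both wild-type arrays lay just below the lower knockout array. Averaged over segments the log2 change was 0.33 (SE 0.22), with a 95% interval from -0.15 to 0.82 and a limma adjusted p of 0.577. It was 0.18 without knockout ascending replicate 2, 0.19 without wild-type ascending replicate 2 and 0.49 without knockout ascending replicate 1. Tgfbr2, the type II receptor that binds TGF-beta first, had 6.46 and 7.01 in wild-type and 7.15 and 6.80 in knockout ascending aorta. The descending values were 6.76 and 6.93 in wild-type and 7.29 and 7.12 in the knockout. As with Tgfbr1, the descending arrays were apart and the ascending ones were not. Its averaged change was 0.30 (SE 0.20), with an interval from -0.15 to 0.74 and a limma adjusted p of 0.582. Leaving out wild-type ascending replicate 1 gave 0.16, and leaving out both narrow arrays gave 0.48.

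Bmpr2, the type II receptor of BMPs, had the smallest spread between replicates relative to its change among the 3 receptors. Its log2 value was 7.61 and 7.73 in wild-type and 8.09 and 8.29 in knockout ascending aorta. In descending aorta it was 8.06 and 7.80 in wild-type and 8.19 and 8.39 in the knockout. All 4 knockout arrays lay above all 4 wild-type arrays. The averaged change was 0.44 (SE 0.18), with an interval from 0.05 to 0.84, an unadjusted p of 0.0306 and a limma adjusted p of 0.391. It ranged from 0.32 after a further quantile normalization to 0.54 with each array centred on its median.

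Cd109 encodes a protein anchored to the membrane by a lipid that binds TGF-beta and, in human keratinocytes, lowers signalling by TGF-beta receptors. Its log2 value was 4.89 and 4.29 in wild-type and 6.63 and 7.20 in knockout ascending aorta. The descending values were 4.67 and 4.31 in wild-type and 6.12 and 5.80 in the knockout. Every knockout array lay above every wild-type array. Averaged over segments Cd109 rose by 1.90 on the log2 scale (SE 0.22, interval 1.39 to 2.40), or 3.73-fold, with a limma adjusted p of 0.0202. The wild-type values lay near the median of all probe sets on those arrays (4.69 to 4.89), and the files give no detection call. The direction stayed in all 17 alternatives, with changes between 1.66 and 2.05, as it must where groups do not overlap, and adjusted p ran from 0.0113 to 0.276. The call ended without wild-type descending replicate 1 (adjusted p 0.104) or replicate 2 (0.127), without knockout ascending replicate 1 (0.119) or replicate 2 (0.206), and without knockout descending replicate 1 (0.165) or replicate 2 (0.141). It also ended without both narrow wild-type arrays (0.0717) and when every probe set of the table was tested (0.276).

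Eng encodes endoglin, a co-receptor of BMP ligands found mainly on endothelial cells. Its log2 value was 7.36 and 7.13 in wild-type and 8.19 and 7.85 in knockout ascending aorta, and the arrays did not overlap. In descending aorta it was 8.36 and 7.03 in wild-type and 8.52 and 8.59 in the knockout. Wild-type descending replicate 1 thus lay 0.16 below the lower of the descending knockout arrays, and replicate 2 far below both. The averaged change was 0.82 (SE 0.28), with an interval from 0.19 to 1.44, an unadjusted p of 0.0156 and a limma adjusted p of 0.347. Without wild-type descending replicate 1 it was 1.15, without replicate 2 it was 0.48, and without both narrow wild-type arrays 0.43. Tgfbr3, or betaglycan, which presents TGF-beta2 to its receptor, had values between 6.23 and 7.04 on all 8 arrays. Neither segment separated the genotypes, and its averaged change was -0.02 (SE 0.23), with an interval from -0.52 to 0.49.

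The endothelial markers, a list of 20 genes without Eng, stood below 0 in the ascending segment, where Eng stood above it. Their mean log2 value was 6.93 and 6.64 in wild-type and 6.41 and 6.23 in knockout ascending aorta, and 7.35 and 6.90 in wild-type and 7.23 and 7.00 in knockout descending aorta. In ascending aorta 16 of the 20 had a change below 0 with a median of -0.63; the defining markers Cdh5 and Pecam1, which encode junction proteins, stood at -0.95 and -0.65, where Eng stood at 0.77. In descending aorta the median was 0.01. None of the 20 passed the limma adjusted p in either segment. In the ascending segment 9 had an unadjusted p under 0.05, all lower, against 3.6% of all genes that were lower at that level. Of all genes, 49.3% had a change above 0 in that segment, and of the brightest 20%, to which 13 of the 20 belong, 75.5%. Tissue was measured in bulk, so fewer cells of a type and less RNA per cell cannot be told apart.

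Myeloid markers, which the same pools could hold through macrophages, were higher. All 15 had a change above 0 over both segments, with a median of 0.75. Above 0 lay 49.8% of all genes and 79.4% of the brightest 20%, to which 11 of the 15 belong. At limma's unadjusted p under 0.05, 10 were higher, against 7.57% of all genes and 20.8% of the brightest 20%, and 0 were called. With both narrow arrays left out, the myeloid markers centred on 0.55 instead. Their mean log2 value was 6.97 and 6.52 in wild-type and 7.77 and 7.54 in knockout ascending aorta, and 7.19 and 7.05 in wild-type and 7.79 and 7.43 in knockout descending aorta. Skeletal muscle markers were lower in the ascending knockout in 13 of 13 genes. Their mean was 6.78 and 7.85 in wild-type and 6.25 and 5.61 in knockout. Their median change was -1.48, and -0.54 without both narrow wild-type arrays. Adipocyte markers were lower in the descending knockout in 11 of 11, with 7.63 and 7.01 against 6.12 and 6.28. Their median change was -0.73, and -1.33 without both narrow arrays. Of all genes, 49.3% had a change above 0 in the ascending and 53.7% in the descending aorta. Cardiomyocyte markers had a change above 0 in the descending aorta in 10 of 12 genes. The share was 53.7% of all genes and 76.5% of the brightest 20%, to which 4 of the 12 belong. The median of the list was 0.58 (0.32 without both narrow wild-type arrays). At limma's unadjusted p under 0.05, 4 were higher, against 3.63% of all genes, and 0 were called. The mean of the cardiomyocyte markers there was 6.79 and 6.16 in wild-type and 7.26 and 7.19 in knockout. The part of any of these marker lists in the values of the 10 genes was not tested.

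Among the receptor-activated Smads, Smad2 had log2 values of 6.50 and 6.85 in wild-type and 6.98 and 7.19 in knockout ascending aorta. The descending values were 7.23 and 6.75 in wild-type and 7.03 and 6.93 in the knockout. The ascending arrays were apart and the descending knockout arrays lay between the wild-type ones. The averaged change was 0.20 (SE 0.19), with an interval from -0.23 to 0.63, and was 0.08 without wild-type descending replicate 2 and 0.32 without replicate 1. Smad3, which carries the TGF-beta signal beside Smad2, had 5.39 and 5.39 in wild-type and 5.40 and 5.27 in knockout ascending aorta. In descending aorta it was 5.19 and 5.36 in wild-type and 5.77 and 5.59 in the knockout. The order was the reverse of that of Smad2: the descending arrays were apart and the ascending ones overlapped. The averaged change of Smad3 was 0.18 (SE 0.17), with an interval from -0.20 to 0.56.

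The inhibitory Smads differed in their spread. Smad7, which blocks type I receptors and recruits ubiquitin ligases to them, had 6.69 and 7.15 in wild-type and 7.21 and 7.29 in knockout ascending aorta. The descending values were 7.28 and 6.35 in wild-type and 7.36 and 7.79 in the knockout. Knockout arrays lay above wild-type arrays in both segments, by as little as 0.06 between the nearest ascending pair of values. The averaged change was 0.54 (SE 0.24), with an interval from -0.01 to 1.09 and a limma adjusted p of 0.444, and ran from 0.31 without wild-type descending replicate 2 to 0.78 without replicate 1. Smad6, which acts mostly on BMP signals, had 7.93 and 6.64 in wild-type and 6.88 and 6.86 in knockout ascending aorta. In descending aorta it was 6.65 and 6.77 in wild-type and 6.80 and 7.34 in the knockout. Wild-type ascending replicate 1 was the highest of the 8 arrays and wild-type ascending replicate 2 the lowest. The averaged change was -0.03 (SE 0.28), with an interval from -0.66 to 0.60; leaving out the higher of these arrays gave 0.29 and leaving out the lower gave -0.35.

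**Figure D2:**
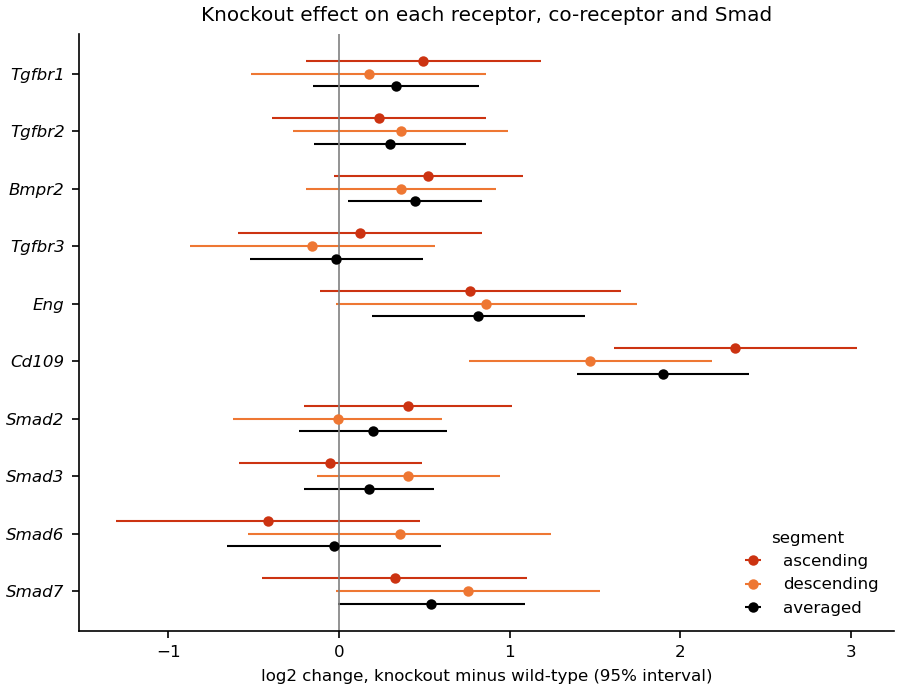
Log2 change (knockout minus wild-type) of each gene in ascending aorta, descending aorta and averaged over both, with the 95% interval from limma's fit (n = 2 arrays per group, spread shared over all 4 groups). The averaged interval excludes 0 for Bmpr2, Eng and Cd109; Cd109, at 1.90, is the gene that passed after adjustment over 22180 genes.

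The same genes were then compared within each segment. In the ascending aorta 0 of the 10 passed limma's adjusted p, as did 0% of all genes, and 1 had an unadjusted p under 0.05, against 5.31% of all genes that were higher at that level. That gene was Cd109, with a log2 change of 2.32 (SE 0.32), or 5.00-fold, and an adjusted p of 0.103. Arrays were apart with the knockout higher in 5 genes (Bmpr2, Eng, Smad2, Smad7 and Cd109), against 21.5% of all genes and 43.8% of the brightest 20%. Changes above 0 were found in 8 of the 10, against 49.3% of all genes and 75.5% of the brightest 20%. Both shares are near those in the brightest genes. Bmpr2 stood at 0.52 (SE 0.25), Tgfbr1 at 0.49 (SE 0.31), Eng at 0.77 (SE 0.39) and Smad6 at -0.42 (SE 0.40). For Smad6 the value turned to 0.23 when wild-type ascending replicate 1 was left out and was -1.06 when replicate 2 was, so its sign in this segment rested on the first of these arrays.

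In the descending aorta 0 of the 10 passed limma's adjusted p, against 0.00451% of all genes, and 1, again Cd109, had an unadjusted p under 0.05, against 3.63% of all genes that were higher. Cd109 stood at 1.47 (SE 0.32), or 2.77-fold, with an adjusted p of 0.487. Arrays were apart with the knockout higher in 8 of the 10 genes, all but Tgfbr3 and Smad2, against 21.6% of all genes and 37.2% of the brightest 20%. Some were barely apart: the nearest wild-type and knockout values differed by 0.02 in Tgfbr1, 0.03 in Smad6 and 0.07 in Smad7. That gap was 0.14 in Bmpr2, 0.16 in Eng, 0.19 in Tgfbr2, 0.23 in Smad3 and 1.13 in Cd109. Changes above 0 were again found in 8 of the 10, against 53.7% of all genes and 76.5% of the brightest 20%. No test over the 10 was made. The changes of the other 7 ran from 0.17 for Tgfbr1 to 0.86 (SE 0.39) for Eng, with 0.76 (SE 0.35) for Smad7, 0.41 (SE 0.24) for Smad3 and 0.36 for each of Tgfbr2, Bmpr2 and Smad6. The values of Eng and Smad7 moved with the wild-type replicates: without wild-type descending replicate 2 they were 0.20 and 0.29, and without replicate 1 they were 1.53 and 1.22.

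Whether the knockout effect differed between segments was tested as an interaction. None of the 10 passed limma's adjusted p, as 0% of all genes did, and 0 had an unadjusted p under 0.05, against 3.3% of all genes. Cd109 had the widest difference: its effect was greater in the ascending segment by 0.85 on the log2 scale (SE 0.45), with an interval from -0.16 to 1.86 and an unadjusted p of 0.0892. That of Smad6 was -0.77 (SE 0.56), that of Smad3 -0.46 (SE 0.34), and the other 7 lay between -0.43 and 0.41. The value of Smad6 was -0.13 without wild-type ascending replicate 1, and that of Smad7 turned from -0.43 to 0.04 without wild-type descending replicate 2. Those of Eng, Tgfbr2 and Tgfbr3 also changed sign when single arrays were left out. With intervals this wide, the data do not show that the segments respond alike.

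The segments were also compared within a genotype, as ascending minus descending. In wild-type aorta 0 of the 10 passed limma's adjusted p, against 0.00902% of all genes, and 0 had an unadjusted p under 0.05, against 6.19%. The differences ran from -0.45 for Eng to 0.57 for Smad6, and both ends turned on 1 array: Eng stood at 0.21 without wild-type descending replicate 1, and Smad6 at -0.07 without wild-type ascending replicate 1. Arrays were apart for Smad3, higher in the ascending segment, and Bmpr2, higher in the descending one, against 15.9% and 14.1% of all genes in those directions. In the knockout 0 passed, as 0% of all genes did, and 1 had an unadjusted p under 0.05, against 4.04%: Cd109 was higher in the ascending segment by 0.95 (SE 0.32, unadjusted p 0.0142), where in wild-type its difference was 0.10 (SE 0.32). Tgfbr1 was also apart and higher in the ascending knockout segment, at 0.57 (SE 0.31), against 18.3% of all genes. Eng, Smad3 and Smad7 were apart and higher in the descending one, at -0.54, -0.34 and -0.32, against 20.8%. All 20 endothelial markers were likewise lower in the ascending than in the descending knockout segment, with a median of -0.80, where 48.3% of all genes were higher. Their part in the value of Eng was not tested. The order of the 4 group means of Cd109 was thus knockout ascending (6.91), knockout descending (5.96), wild-type ascending (4.59) and wild-type descending (4.49), of which the last pair differed by less than the spread between replicates.

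The rest of the pathway was described from lists. None of the other 9 type I and type II receptors passed limma's adjusted p in any knockout effect or had an unadjusted p under 0.05; over both segments 4 lay above 0 and 5 below, with a median of -0.01. The activin receptor gene Acvr1b stood at 0.56 (SE 0.27) and Acvr1, a type I receptor of BMPs, at 0.34 (SE 0.19), while the activin receptor genes Acvr2b and Acvr1c stood at -0.36 and -0.28. With single arrays left out Acvr1b ran from 0.31 to 0.81, Acvr2b from -0.54 to -0.17 and Acvr1c from -0.44 to -0.11. Of the other Smads, the BMP-activated Smad9 and Smad1 stood at 0.43 (SE 0.25) and 0.31 (SE 0.20), the common partner Smad4 at 0.23 (SE 0.21) and Smad5 at 0.09 (SE 0.19), none called. Single arrays moved these too: Smad9 was 0.16 without knockout ascending replicate 1, and without wild-type descending replicate 2 Smad1 was 0.17, Smad4 0.06 and Smad5 -0.03. The median of these 4 Smads was 0.27, and 0.14 without both narrow wild-type arrays. Among 19 measured regulators of receptors and Smads 16 lay above 0 over both segments, with a median of 0.31, 0 called and 4 at an unadjusted p under 0.05. Of the 19, 10 belong to the brightest 20% of genes and 18 to the brightest 40%. Both shares of the list are close to the 79.4% and 20.8% of the brightest 20%, and the shares of the brightest 40% were not computed. The 4 were the phosphatase gene Ppm1a (0.67, SE 0.21), the ubiquitin ligase gene Smurf1 (0.51, SE 0.17), Strap (0.47, SE 0.19), whose product binds TGF-beta receptors, and Pmepa1 (0.46, SE 0.19), a TGF-beta target that holds back Smad2 and Smad3. Strap was 0.31 without knockout descending replicate 1, and the median of the list was 0.11 without both narrow wild-type arrays.

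Genes that TGF-beta and BMPs are known to induce were described in the same way. Of 15 measured TGF-beta targets 14 lay above 0 over both segments, with a median of 0.46, 1 called and 8 at an unadjusted p under 0.05. The target list shares genes with that of the regulators, among them Pmepa1 and Skil, so these lists are not independent. Of the 15, 10 belong to the brightest 20% of genes, where the median was 0.24, 79.4% lay above 0 and 20.8% were higher at an unadjusted p under 0.05. The called gene was Thbs1, which encodes thrombospondin 1, an activator of latent TGF-beta. It rose by 2.54 (SE 0.26, limma adjusted p 0.0144), and the adjusted p passed 0.05 when wild-type descending replicate 2 (0.0571) or any 1 of the 4 knockout arrays (0.0979 to 0.141) was left out, or when every probe set was tested (0.265). The matrix genes Ltbp2 and Fn1 stood at 1.06 (SE 0.18) and 0.90 (SE 0.18), and Ccn2 at 1.36 (SE 0.25), none of them called. Of 9 measured BMP targets 4 lay above 0 and 5 below, with a median of -0.03 (-0.32 without both narrow wild-type arrays) and 0 called. The transcription factor gene Msx2 had an unadjusted p under 0.05 and stood at -0.45 (SE 0.19) over both segments and -0.93 (SE 0.27) in the ascending one. Msx2, at 3.34 to 4.58, is among the dimmest 20% of genes, whose median change over both segments was -0.14. The difference between these lists was not tested.

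Of 13 ligands 9 lay above 0 over both segments, with a median of 0.30 (0.18 without both narrow wild-type arrays), 0 called and 5 at an unadjusted p under 0.05. Of all genes, 49.8% lay above 0 and 11.4% had an unadjusted p under 0.05. The growth factor genes Gdf6, Tgfb3, Inhba and Tgfb2 stood at 1.08 (SE 0.17), 1.00 (SE 0.17), 0.68 (SE 0.24) and 0.52 (SE 0.22), and Bmp10, a ligand of endoglin that the heart makes, at -0.63 (SE 0.27). The wild-type values of Gdf6, 3.61 to 3.96, lay below the median of all probe sets on those arrays (4.69 to 4.89). Bmp10 was highest on wild-type descending replicate 1, at 5.66, where the remaining arrays lay between 3.89 and 4.53, and its change was -0.34 without that array. Inhba, which encodes an activin subunit, stood at 1.50 in the ascending and -0.15 in the descending aorta. Of 11 measured antagonists 9 lay above 0, with a median of 0.20 (0.06 without both narrow wild-type arrays) and 0 called. At an unadjusted p under 0.05, 2 were higher, against 7.57% of all genes and 20.8% of the brightest 20%. They were the activin binder Fstl3 (0.64, SE 0.19) and the BMP binder Chrdl1 (0.83, SE 0.27).

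**Figure D3:**
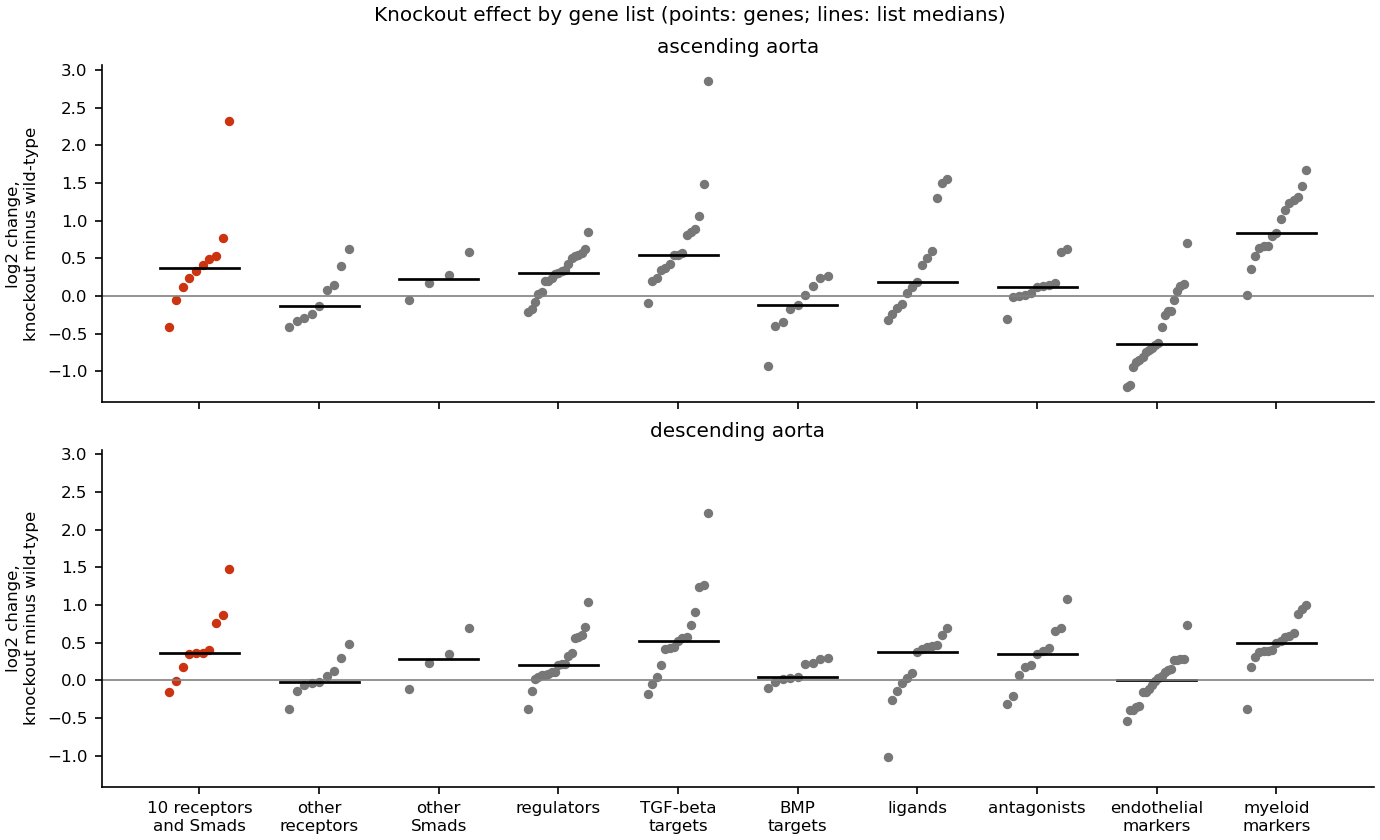
Log2 change (knockout minus wild-type) of each measured gene of 10 lists in ascending (upper panel) and descending aorta (lower panel), with a line at each list's median; the 10 receptors and Smads are in red. Their median was 0.37 in ascending and 0.36 in descending aorta, and the endothelial median was -0.63 and 0.01.

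Cd109 and Eng had the widest ranges of the 4 group means, 2.42 and 1.31. For both, the genes nearest in pattern were sought among 17289 genes (without predicted, small RNA and odorant or vomeronasal receptor genes) as those with the smallest root mean square difference over the 8 arrays after each gene was centred on its own mean. Nearest to Cd109 was Itga5, a fibronectin receptor subunit, at 0.32 where the spread of Cd109 about its own mean was 1.04; Igfbp2 (0.36), Adm (0.40), Plaur (0.40) and Ahnak2 (0.40) followed. Itga5 had 7.56 and 7.35 in wild-type and 9.00 and 9.42 in knockout ascending aorta, and 7.73 and 7.45 in wild-type and 8.64 and 8.41 in knockout descending aorta. Like Cd109, for closeness to which it was chosen, it was highest in the ascending knockout. Nearest to Eng were Rtp4 (0.12), the endothelial transcription factor gene Erg (0.17), Psmc1 (0.18), Wee1 (0.18) and Omd (0.18), where the spread of Eng was 0.59. Erg was the member of the endothelial list with the largest change above 0, at 0.72 (SE 0.26) over both segments (0.43 without wild-type descending replicate 2), and like Eng it had 1 high (7.02) and 1 low (5.84) wild-type descending array. Closeness over 8 arrays says nothing of shared function or control.

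**Figure D4:**
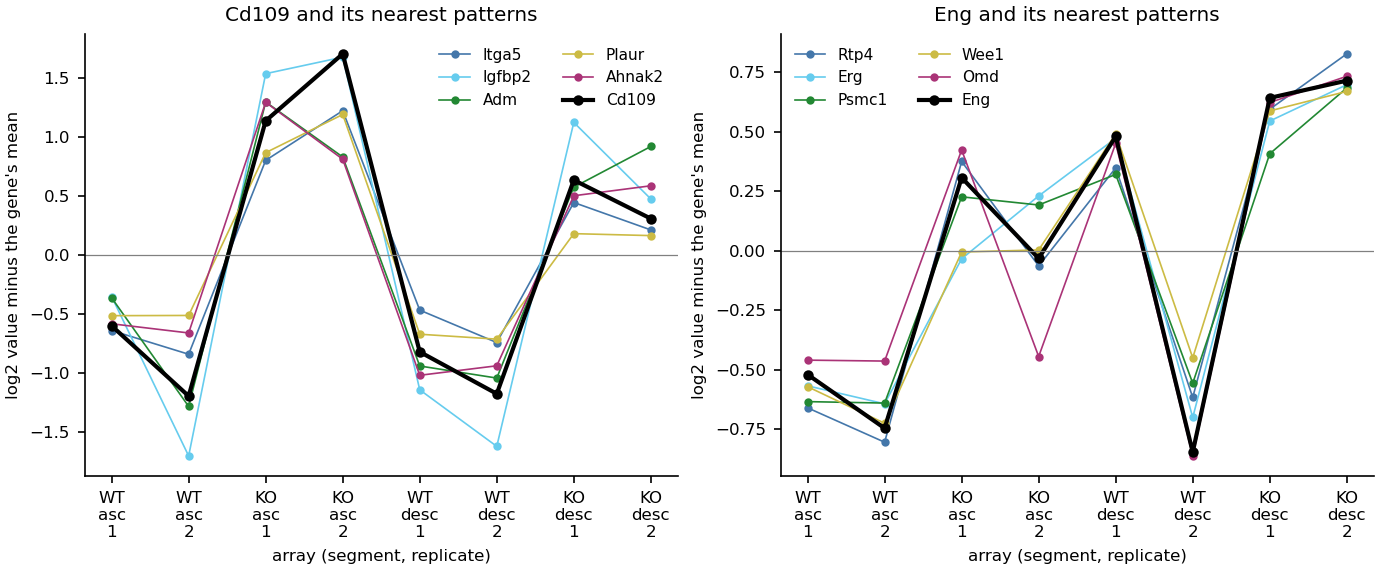
Log2 value minus the gene's mean over the 8 arrays for Cd109 (left) and Eng (right) in black, and for the 5 genes nearest to each in colour, array by array. Cd109 and its neighbours are lowest on the 4 wild-type arrays and have their highest group mean in the ascending knockout. Eng and its neighbours are all higher on wild-type descending replicate 1 than on replicate 2. The neighbours were chosen for closeness on these same arrays, so a shared order follows from the choice.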

How the data were processed

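The authors deposited 1 log2 value per probe set and array, and per the submitters' processing notes the software was Affymetrix Expression Console and the method RMA. Which versions and which probe set definition were used is not stated in the sources. RNA was amplified before labelling, per the labels' protocols, and RMA compresses differences of dim genes. The table held 41345 rows, of which 23521 had 1 gene symbol; the row with the highest mean per gene left 22180 genes. Expression of the targeted gene is not reported here.

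The model was fitted in limma 3.58.1 (R 4.3.3) to all 8 arrays with 1 mean per group (4 residual and 5.52 prior degrees of freedom), and adjusted by Benjamini-Hochberg over all genes of a comparison. The fit was tested on simulated data. The genes and lists were chosen with earlier results of these data known. All 10 genes are named, with up to 4 genes per pathway list by the smallest averaged p and up to 2 more per segment. Alternatives were 2 scalings, a dim-gene filter, the mean of a gene's rows, every row, a replicate block, only the groups compared, trend and robust options, array weights, and left-out arrays. With 2 arrays per group the median standard error within a segment was 0.30 on the log2 scale, which limits precision. Figures were drawn with matplotlib 3.10.9.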

Additional observations from a re-analysis of the deposited data

How the results depend on the processing

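Over 18 alternatives, 1060 values of the 10 genes in the 6 comparisons were recomputed. The called ones were all of Cd109 over both segments, whose genotypes do not overlap, so that 0 of them changed sign was fixed beforehand. Several alternatives, such as the replicate block, array weights and every row, leave the log2 change of these genes as it was. So does leaving out an array of a group not compared. The 1060 values are therefore not separate checks. Of the uncalled values 41 changed sign, some of them from well away from 0, such as the wild-type segment differences of Eng and Smad6. The number of the 10 genes called over both segments was 0, not 1, when every row was tested and without both narrow wild-type arrays, and 0 to 1 when single arrays were left out. It stayed 0 in the other 5 comparisons under every alternative run. Over all genes, 16 were called over both segments. That count was 1 with every row, where more features are tested, 35 without the dimmest 25%, where fewer are, 25 without both narrow wild-type arrays, and 0 to 50 with single arrays left out. In the ascending aorta it was 0, and 4 with trend and robust options, 1 without the dimmest 25%, 11 without both narrow arrays, and 0 to 14 with single arrays left out. In the descending aorta it was 1, and 0 after centring, after quantile normalization, with every row, with the replicate block and with only the groups compared. It was 2 without the dimmest 25% and with array weights, 4 with trend and robust options, 7 without both narrow arrays, and 0 to 2 with single arrays left out. For the segment difference in wild-type it was 2, and 1 after centring and with the replicate block, 0 with every row, with only the groups compared and with array weights, 9 without both narrow arrays, and 0 to 23 with single arrays left out. In the knockout it was 0, and 2 without the dimmest 25% and with trend and robust options, and 18 with array weights. For the difference between segments it was 0, and 1 without both narrow arrays. The causes of these shifts were not tested, also where more or fewer features entered the fit. A lone array left in a group is assumed to vary like the other groups.

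Array numbers are shared between groups, but same-numbered arrays did not deviate together throughout (correlation across genes of their deviations from the group means between -0.08 and 0.29). The highest value was that of the wild-type ascending and descending arrays, whose second replicates are the narrow ones. The numbers were therefore not taken to pair the samples. With the replicate block Cd109 had an adjusted p of 0.0263 and 19 genes were called over both segments.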

Other observations

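The high value of Smad6 in wild-type ascending replicate 1 did not stand alone. Of the 9 measured BMP targets, 5 had their highest value of the 8 arrays there, where 20.7% of all genes did; this was seen after the values were known and was not tested. Id1, a transcriptional regulator that BMPs induce, had 7.17 on that array and 6.02 to 6.61 on the other 7. Atoh8 had 6.57 there and 5.47 to 6.25 elsewhere, and Id3 had 9.99 there and 8.99 to 9.70 elsewhere. Msx2 and Gata2 were the other 2. Msx2 was high on both wild-type ascending arrays, at 4.58 and 4.30, with 3.34 to 3.79 on the remaining arrays. Gata2 had 6.09 on wild-type ascending replicate 1 and 5.20 to 5.99 elsewhere.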
